A study of Trichoderma reesei with 24 samples.

Results

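Folding of secreted proteins in the endoplasmic reticulum (ER) of the cellulase producer *Trichoderma reesei* was followed through 4 genes of the 8755 in the table. These were *bip1* (TRIREDRAFT_122920), *pdi1* (TRIREDRAFT_122415), the gene for calnexin (TRIREDRAFT_73678), and *hac1* (TRIREDRAFT_46902), each taken by its identifier and not by its values. RefSeq carries the symbols *pdi1* and *bip1* for their identifiers, while the names calnexin and *hac1* were taken with the identifiers as given for the series and were not checked against a protein sequence here.

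A secreted cellulase enters the ER as an unfolded chain. BiP, an Hsp70 chaperone of the ER lumen, holds and releases the chain, protein disulfide isomerase (Pdi1) forms and reshuffles its disulfide bonds, and calnexin is a membrane lectin that retains glycoproteins until they are folded. When unfolded chains accumulate, the ER sensor Ire1 cuts an unconventional intron out of the *hac1* mRNA, and the Hac1 bZIP factor made from the spliced message raises the transcription of folding genes, a circuit called the unfolded protein response (UPR). TPM (a transcript level scaled by gene length and by library) is summed over a gene, so it gives the amount of *hac1* message but does not separate the spliced from the unspliced form.

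WT and a Δ*nsd3* strain were compared, each with 3 libraries per condition. The WT is TU6, a uridine auxotroph derived from QM9414, and the Δ*nsd3* strain is TU6 in which *nsd3*, encoding a C2H2 zinc finger transcription factor, was replaced by *pyr4* (genotype label nsd3::pyr4), so the mutant carries a *pyr4* marker that its WT lacks. Mycelia were harvested after 24 h on glycerol, after 24 h on glucose, and 8 h or 48 h after mycelia pregrown for 24 h on glycerol had been moved to cellulose, the substrate that induces cellulase secretion. The mycelia on cellulose were thus older and had been transferred. In comparisons with glycerol or glucose, culture age and transfer cannot be told apart from cellulose itself. The Δ*nsd3* strain is 1 transformant, and differences from WT cannot be told apart from other changes that came with that transformant or with the marker. The labels number the libraries 1 to 3 in each group and do not say whether they are separate cultures, so p-values measure the spread between these libraries.

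Depth was estimated from the spacing of low TPM values, as reads assigned to the listed genes and not as all reads sequenced. It was 18.1 to 45.7 M reads in 23 of the 24 libraries, while the third glycerol library of the mutant gave no clear spacing. In those 23 libraries the estimates for the folding genes were at least 4757 reads for *pdi1*, 12973 for *bip1*, 5162 for calnexin, and 5463 for *hac1*. *nsd3* itself had 32.2 to 278 TPM in the 12 WT libraries and 0 to 2.42 TPM in the 12 Δ*nsd3* libraries, as the labels say. The genes of secreted cellulases served as a check of induction. *cel7a*, encoding the main cellobiohydrolase, was 1.29, 2.15, and 20.8 TPM on glycerol in WT, where the third library stood apart, and averaged 11455 TPM at 8 h on cellulose. In the mutant it was 10.3, 9.81, and 1.69 TPM on glycerol and averaged 9521 TPM at 8 h. By 48 h it averaged 2734 TPM in WT and 1441 TPM in the mutant. At 8 h the endoglucanase genes *cel7b* (818 against 341 TPM) and *cel5a* (2238 against 1127 TPM) were lower in the Δ*nsd3* strain (adjusted p = 9.32e-05 and 0.0381), and *cel7a* differed by -0.25 on the log2 scale (adjusted p = 0.750). The *cel5a* call did not hold without any 1 of the 6 libraries but the third of WT (adjusted p up to 0.139).

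Changes were tested with limma on log2(TPM + 1) over the 7933 genes that reached 1 TPM in 3 or more libraries, and a gene was called at a Benjamini-Hochberg adjusted p under 0.05. Each gene has 1 variance over all 24 libraries, so its SE is the same in every comparison of a pair of groups and larger in the contrasts between the strains' responses. Many genes moved in every comparison, and the median gene was itself 0.49 higher on the log2 scale at 8 h on cellulose than on glycerol in WT, against 0.03 higher in Δ*nsd3*. Each change was therefore also computed after the libraries were rescaled by the median of ratios, which brings the median gene to within 0.05 of no change, and this value is called the rescaled change. These are levels per unit of mycelial RNA, in which fewer cells of a kind and less RNA per cell cannot be told apart.

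**Figure D1:**
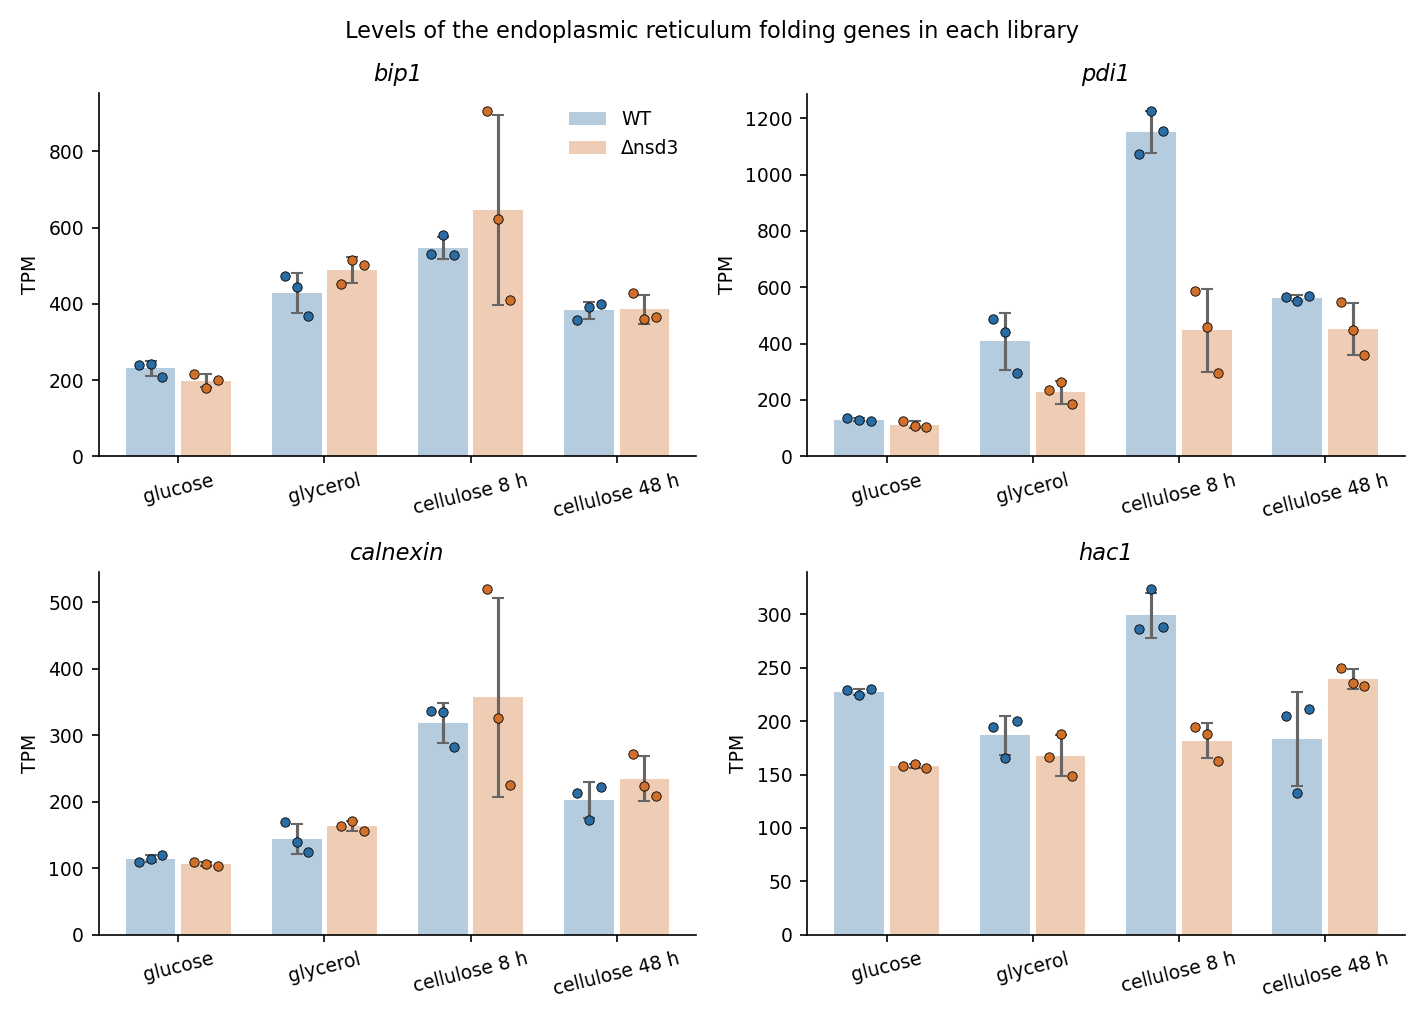
TPM of *bip1*, *pdi1*, calnexin, and *hac1* (y axes, starting at 0) in WT and Δ*nsd3* on glucose, glycerol, and cellulose for 8 h and 48 h. Points are libraries, bars are group means, and error bars are SD over 3 libraries. The WT points of *pdi1* at 8 h, 1075 to 1226 TPM, sit above every other *pdi1* point, and the 3 Δ*nsd3* points of *bip1*, *pdi1*, and calnexin at 8 h are spread widely.

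*pdi1* was the member whose level varied most across the conditions. In WT it was 135, 128, and 127 TPM on glucose, 489, 442, and 296 TPM on glycerol, 1075, 1226, and 1154 TPM at 8 h on cellulose, and 567, 551, and 568 TPM at 48 h. No library of one of these conditions overlapped with a library of another. Mutant libraries had 127, 108, and 102 TPM on glucose, 234, 263, and 184 TPM on glycerol, 588, 459, and 295 TPM at 8 h, and 548, 448, and 361 TPM at 48 h. There the libraries at 8 h and 48 h overlapped, and both stood above those on glycerol. By mean TPM, *pdi1* ranked 90th from the highest of the 8755 genes in WT at 8 h and 303rd in Δ*nsd3*, against 969th and 1067th on glucose.

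On moving from glycerol to cellulose, WT *pdi1* rose 2.87-fold by 8 h (log2 change 1.52, SE 0.21, adjusted p = 2.43e-06), and its rescaled change was 0.98 (adjusted p = 7.45e-05). It then fell by 1.03 on the log2 scale between 8 h and 48 h (SE 0.21, adjusted p = 4.24e-04, rescaled -0.84). At 48 h it was still 0.49 higher than on glycerol (adjusted p = 0.0447), but this call did not hold after rescaling (0.13, adjusted p = 0.516). Nor did it hold when the third glycerol library or any of the WT 48 h libraries was left out (0.27 to 0.50, adjusted p = 0.0540 to 0.284). In the mutant *pdi1* rose 1.92-fold by 8 h (log2 change 0.94, SE 0.21, adjusted p = 0.00134, rescaled 0.90), and the difference between 48 h and 8 h was 0.05 (95% interval -0.38 to 0.48, adjusted p = 0.914). At 48 h it was 0.99 higher than on glycerol (adjusted p = 5.48e-04). Against glucose, *pdi1* was 8.80-fold higher at 8 h in WT and 3.83-fold higher in Δ*nsd3*.

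Without *nsd3*, *pdi1* was lower on glycerol and at 8 h on cellulose. On glycerol the mutant had 227 ± 39.9 TPM (SD, n = 3) against 409 ± 101 in WT, and the libraries did not overlap (log2 difference -0.83, SE 0.21, adjusted p = 0.00345, rescaled -1.19). At 8 h it had 448 ± 147 TPM against 1152 ± 75.2 in WT, where the highest mutant library was below the lowest WT library (log2 difference -1.42, SE 0.21, adjusted p = 8.26e-06, rescaled -1.26). On glucose the difference was -0.21 (95% interval -0.64 to 0.22, adjusted p = 0.456), and at 48 h it was -0.33 (95% interval -0.76 to 0.10, adjusted p = 0.204), which rescaling placed at -0.37 (adjusted p = 0.0781) and quantile normalization at -0.53 (adjusted p = 0.0480). Both called differences kept their direction and call in every alternative run, left-out libraries included.

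*bip1*, the Hsp70 chaperone gene, changed less. In WT it was 241, 243, and 207 TPM on glucose, 473, 443, and 369 TPM on glycerol, 531, 581, and 527 TPM at 8 h on cellulose, and 357, 392, and 398 TPM at 48 h. The glucose libraries were the lowest, and those at 48 h overlapped with glycerol. Mutant libraries had 215, 180, and 201 TPM on glucose, 451, 514, and 501 TPM on glycerol, 906, 622, and 410 TPM at 8 h, and 429, 361, and 366 TPM at 48 h. The 8 h libraries of the mutant spread from below its glycerol libraries to well above them.

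In WT the change of *bip1* from glycerol to 8 h was 0.36 (SE 0.18, adjusted p = 0.0938), below the 0.49 of the median gene, and its rescaled value was -0.19 (adjusted p = 0.376), so its direction depended on the scaling. It was called with array weights (0.34, adjusted p = 0.0246) and in a fit of only these 6 libraries (adjusted p = 0.0395). From 8 h to 48 h it fell by 0.51 (adjusted p = 0.0282), a call that did not hold after rescaling (-0.32, adjusted p = 0.131) or quantile normalization (-0.39, adjusted p = 0.106). It was also lost without the first or the second WT 8 h library or the first WT 48 h library (-0.53 to -0.46, adjusted p = 0.0515 to 0.0897). In the mutant the change from glycerol to 8 h was 0.33 (SE 0.18, adjusted p = 0.186), and it rested on which 8 h library was used, at 0.05 without the first (adjusted p = 0.866) and 0.62 without the third (adjusted p = 0.00488). Between 8 h and 48 h it fell by 0.68 (adjusted p = 0.00869), and without the first 8 h library the value was -0.39 (adjusted p = 0.0920).

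No strain difference of *bip1* was called in any condition with all libraries. The differences were -0.21 on glucose, 0.20 on glycerol, 0.17 at 8 h, and 0.01 at 48 h, with 95% intervals that reached no further than -0.59 and 0.58, and the values on glycerol and at 48 h turned to -0.16 and -0.03 after rescaling. At 8 h the 3 mutant libraries lay on both sides of the WT libraries, and the difference was -0.11 without the first mutant library and 0.46 without the third (adjusted p = 0.0247). On glucose, array weights gave -0.30 (adjusted p = 0.0242) and rescaling -0.02 (adjusted p = 0.938).

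The gene for calnexin, the glycoprotein chaperone, rose early on cellulose in both strains. In WT it was 110, 114, and 120 TPM on glucose, 169, 140, and 125 TPM on glycerol, 337, 335, and 283 TPM at 8 h, and 213, 172, and 222 TPM at 48 h. All 8 h libraries were above all others. Mutant libraries had 109, 106, and 104 TPM on glucose, 163, 171, and 156 TPM on glycerol, 519, 325, and 226 TPM at 8 h, and 272, 224, and 208 TPM at 48 h. The 8 h and 48 h libraries of the mutant overlapped, and both groups lay above its glycerol libraries.

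Calnexin rose by 1.14 on the log2 scale from glycerol to 8 h in WT (SE 0.20, adjusted p = 4.06e-05, rescaled 0.60, adjusted p = 0.00227) and by 1.04 in the mutant (SE 0.20, adjusted p = 2.73e-04), where the call also held after rescaling. It fell by 0.65 between 8 h and 48 h in WT (adjusted p = 0.0104, rescaled -0.47), while the same difference in Δ*nsd3* was -0.53 (adjusted p = 0.0547, rescaled -0.53, adjusted p = 0.0107). With a library left out, that difference was between -0.22 without the first 8 h library (adjusted p = 0.429) and -0.82 without the third (adjusted p = 0.00195), and it was also called without the first 48 h library (-0.64, adjusted p = 0.0417). At 48 h calnexin was above glycerol by 0.49 in WT (adjusted p = 0.0356) and by 0.51 in Δ*nsd3* (adjusted p = 0.0413). The WT call was lost after rescaling (0.13, adjusted p = 0.462) and without the second or the third glycerol library or the first or the third 48 h library (0.39 to 0.47, adjusted p = 0.0806 to 0.140). The mutant call was lost when any library but the third at 48 h was left out (0.40 to 0.55, adjusted p = 0.0641 to 0.162). The strain difference of calnexin was between -0.10 and 0.21 in the 4 conditions, with adjusted p of 0.402 to 0.740 and 95% intervals within -0.51 and 0.62. Its sign turned after rescaling on glycerol (-0.17) and on glucose (0.09).

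The *hac1* message, from which the UPR transcription factor is made, had its highest level in WT at 8 h and in the mutant at 48 h. In WT it was 229, 224, and 230 TPM on glucose, 194, 165, and 200 TPM on glycerol, 286, 324, and 288 TPM at 8 h, and 205, 132, and 212 TPM at 48 h. All 8 h libraries were above all others, and the second 48 h library was the lowest of the WT. Mutant libraries had 158, 159, and 156 TPM on glucose, 166, 188, and 149 TPM on glycerol, 195, 188, and 163 TPM at 8 h, and 250, 236, and 233 TPM at 48 h. The 48 h libraries of the mutant were above all its others, which overlapped on glycerol and at 8 h.

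In WT *hac1* was 0.68 higher at 8 h than on glycerol (SE 0.14, adjusted p = 3.54e-04), close to the shift of the median gene, and its rescaled change was 0.14 (adjusted p = 0.355). It fell by 0.74 between 8 h and 48 h (SE 0.14, adjusted p = 3.31e-04, rescaled -0.55), and at 48 h it differed from glycerol by -0.05 (adjusted p = 0.758, rescaled -0.41, adjusted p = 0.00535). In the mutant the difference between 8 h and glycerol was 0.12 (95% interval -0.18 to 0.42, adjusted p = 0.596, rescaled 0.08). By 48 h the message had risen by 0.52 over glycerol (adjusted p = 0.00628, rescaled 0.47). The rise of 0.40 from 8 h to 48 h in the mutant (adjusted p = 0.0476) was lost when any 1 of the 6 libraries was left out (0.32 to 0.45, adjusted p = 0.0574 to 0.176).

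The strain difference of *hac1* was called in 3 of the 4 conditions and was not in 1 direction. On glucose the mutant had 158 ± 1.66 TPM against 228 ± 2.98 in WT (log2 difference -0.52, SE 0.14, adjusted p = 0.00772, rescaled -0.33). At 8 h on cellulose it had 182 ± 16.6 TPM against 299 ± 21.0 in WT (-0.72, SE 0.14, adjusted p = 3.24e-04, rescaled -0.57), with no overlap between the libraries. At 48 h it had 239 ± 9.39 TPM against 183 ± 44.1 in WT (0.42, SE 0.14, adjusted p = 0.0254, rescaled 0.38, adjusted p = 0.0145). The 48 h difference was 0.20 without the second WT library (adjusted p = 0.188), 0.38 without the first mutant library (adjusted p = 0.0659), 0.43 without the second (adjusted p = 0.0518), and 0.21 after quantile normalization (adjusted p = 0.157). On glycerol it was -0.15 (adjusted p = 0.411), and its rescaled value was -0.51 (adjusted p = 0.00270).

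**Figure D2:**
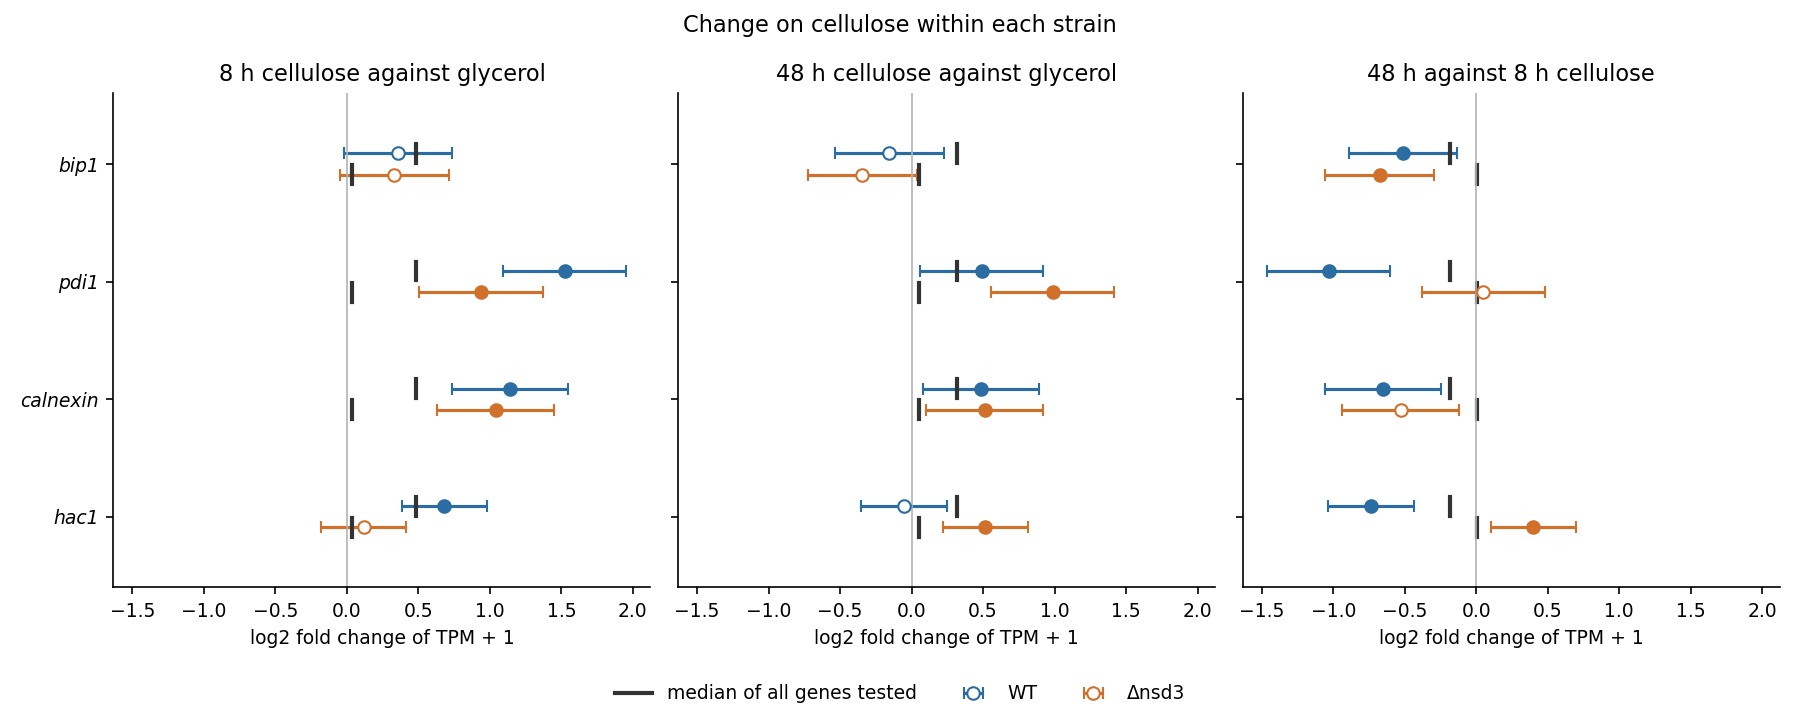
Log2 fold change of TPM + 1 (x axes) of the 4 genes within WT (blue) and Δ*nsd3* (orange) for 8 h cellulose against glycerol, 48 h cellulose against glycerol, and 48 h against 8 h cellulose. Points are limma estimates with 95% intervals, filled where the adjusted p is under 0.05, and black ticks mark the median of the 7933 genes tested. *pdi1* at 8 h is at 1.52 in WT and 0.94 in Δ*nsd3*, and from 8 h to 48 h it is at -1.03 in WT and 0.05 in Δ*nsd3*.

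The folding genes were also counted together, beside the share of all genes tested that were called in the same direction. Between glycerol and 8 h on cellulose 3 of the 4 rose in WT, where 52.1% of the genes tested were higher, and 2 rose in Δ*nsd3*, where 19.0% were. The median change of the 4 genes was 0.91 in WT and 0.63 in Δ*nsd3*, beside 0.49 and 0.03 for the median gene tested. Between 8 h and 48 h all 4 fell in WT, where 28.2% of genes were lower. In the mutant *hac1* was called higher, where 11.3% of genes were higher, and *bip1* lower, where 12.3% were. At 48 h against glycerol 2 were higher in WT (44.1% of genes) and 3 in Δ*nsd3* (23.7%), and the comparisons of both cellulose times with glycerol share the glycerol libraries.

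Glucose, a repressing sugar on which little cellulase is made, gave the lowest level of *bip1*, *pdi1*, and calnexin in both strains. At 8 h on cellulose all 4 genes were higher than on glucose in WT (43.7% of genes), and 3 in Δ*nsd3* (44.6%). *bip1* was 2.37-fold higher in WT and 3.09-fold higher in Δ*nsd3*, and calnexin was 2.76-fold and 3.15-fold higher. *hac1* was 0.39 higher in WT (adjusted p = 0.0212), a call that was lost after rescaling (0.04, adjusted p = 0.798) and without the second library of either group (0.33 and 0.38, adjusted p = 0.0849 and 0.0542). At 48 h 3 genes were higher than on glucose in WT (37.9% of genes), while *hac1* was 0.34 lower (27.4% of genes lower, adjusted p = 0.0410). That difference was -0.13 without the second WT 48 h library (adjusted p = 0.341), -0.34 to -0.35 without any 1 glucose library (adjusted p = 0.0714 to 0.0848), -0.10 after quantile normalization (adjusted p = 0.472), and -0.51 after rescaling (adjusted p = 7.89e-04). In the mutant all 4 were higher at 48 h (46.1% of genes), with *hac1* at 0.60 (adjusted p = 9.91e-04, rescaled 0.20, adjusted p = 0.152).

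Glycerol already differed from glucose before any cellulose was given. In WT *pdi1* (3.06-fold) and *bip1* (1.85-fold) were higher on glycerol, where 18.1% of genes were, and calnexin (0.32, adjusted p = 0.179) and *hac1* (-0.29, adjusted p = 0.102) were not called, although the rescaled change of calnexin was 0.51 (adjusted p = 0.00646). In the mutant *bip1* (2.46-fold), *pdi1* (adjusted p = 3.19e-04), and calnexin (1.53-fold) were higher, where 38.8% of genes were. The rescaled change of calnexin was 0.26 there (adjusted p = 0.148).

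Against WT, the Δ*nsd3* strain was lower in 1 of the 4 genes on glycerol (*pdi1*, 7.10% of genes lower), 1 on glucose (*hac1*, 22.8%), and 2 at 8 h on cellulose (*pdi1* and *hac1*, 26.4%), and higher in 1 at 48 h (*hac1*, 22.2%). *bip1* and calnexin were in none of these counts.

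**Figure D3:**
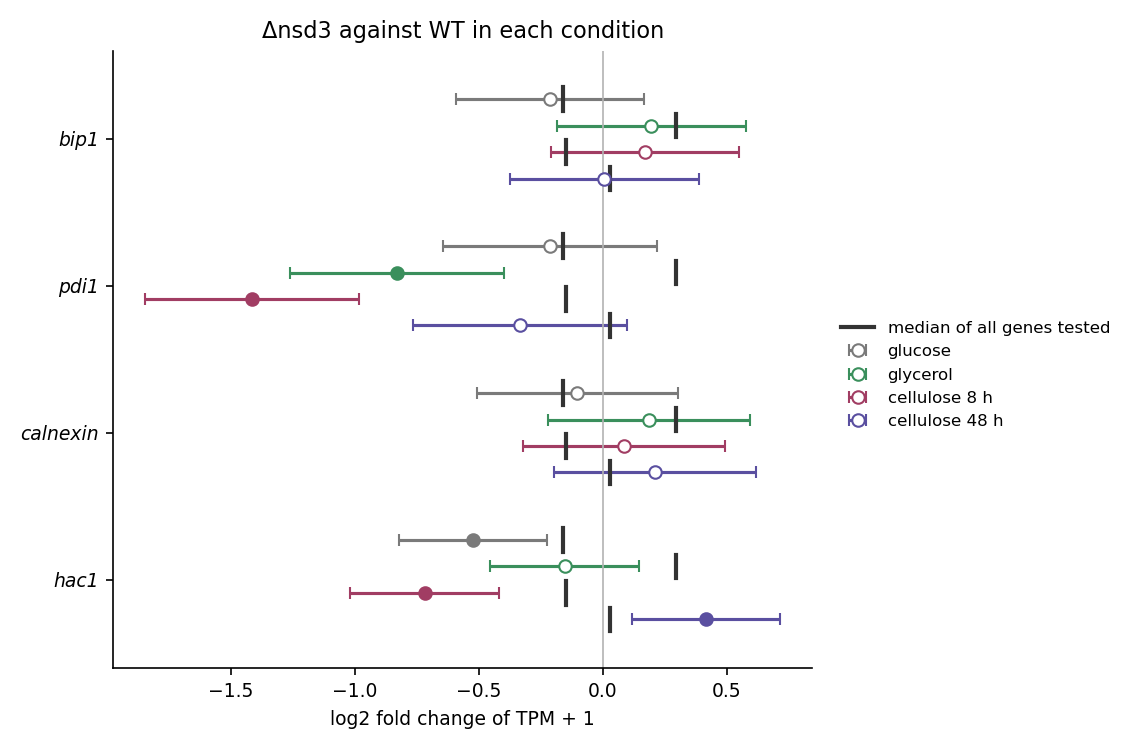
Log2 difference of TPM + 1 between Δ*nsd3* and WT (x axis) for each of the 4 genes in 4 conditions (colors). Points are limma estimates with 95% intervals, filled where the adjusted p is under 0.05, and black ticks mark the median of all genes tested in that condition. *pdi1* lies at -0.83 on glycerol and -1.42 at 8 h, *hac1* at -0.72 at 8 h and 0.42 at 48 h, and the *bip1* and calnexin points are all open.

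Whether the strains responded differently was tested as a contrast of the same model. For 8 h against glycerol 1 of the 4 was called (38.3% of genes), *hac1* at -0.56 (SE 0.20, adjusted p = 0.0340), where the median gene was at -0.43 and the rescaled value was -0.06 (adjusted p = 0.837). That call was also lost without the second WT glycerol library, the first or second mutant glycerol library, the second WT 8 h library, or the third mutant 8 h library (-0.57 to -0.48, adjusted p = 0.0555 to 0.0953). *pdi1* was at -0.58 (adjusted p = 0.116), and its rescaled value was -0.08 (adjusted p = 0.851), against -0.84 after quantile normalization (adjusted p = 0.0493). With a library left out it was between -0.81 without the first mutant 8 h library (adjusted p = 0.0288) and -0.31 without the third (adjusted p = 0.378). For 48 h against 8 h 2 were called (20.2% of genes), *pdi1* at 1.08 (SE 0.29, adjusted p = 0.0124, rescaled 0.89) and *hac1* at 1.14 (SE 0.20, adjusted p = 4.94e-04, rescaled 0.94). The *pdi1* call was lost in the limma fit of only the groups compared (adjusted p = 0.0505). For 8 h against glucose 1 was called (28.7% of genes), *pdi1* at -1.20 (SE 0.29, adjusted p = 0.00350, rescaled -1.24). *bip1* was at 0.38 there (adjusted p = 0.291), between 0.10 without the first mutant 8 h library (adjusted p = 0.768) and 0.67 without the third (adjusted p = 0.0202). Calnexin was called in none of the 3 contrasts, with values of -0.10 (95% interval -0.68 to 0.48), 0.12 (-0.45 to 0.70), and 0.19 (-0.39 to 0.76). The first and second of these turned sign after rescaling, at 0.40 and -0.07.

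**Figure D4:**
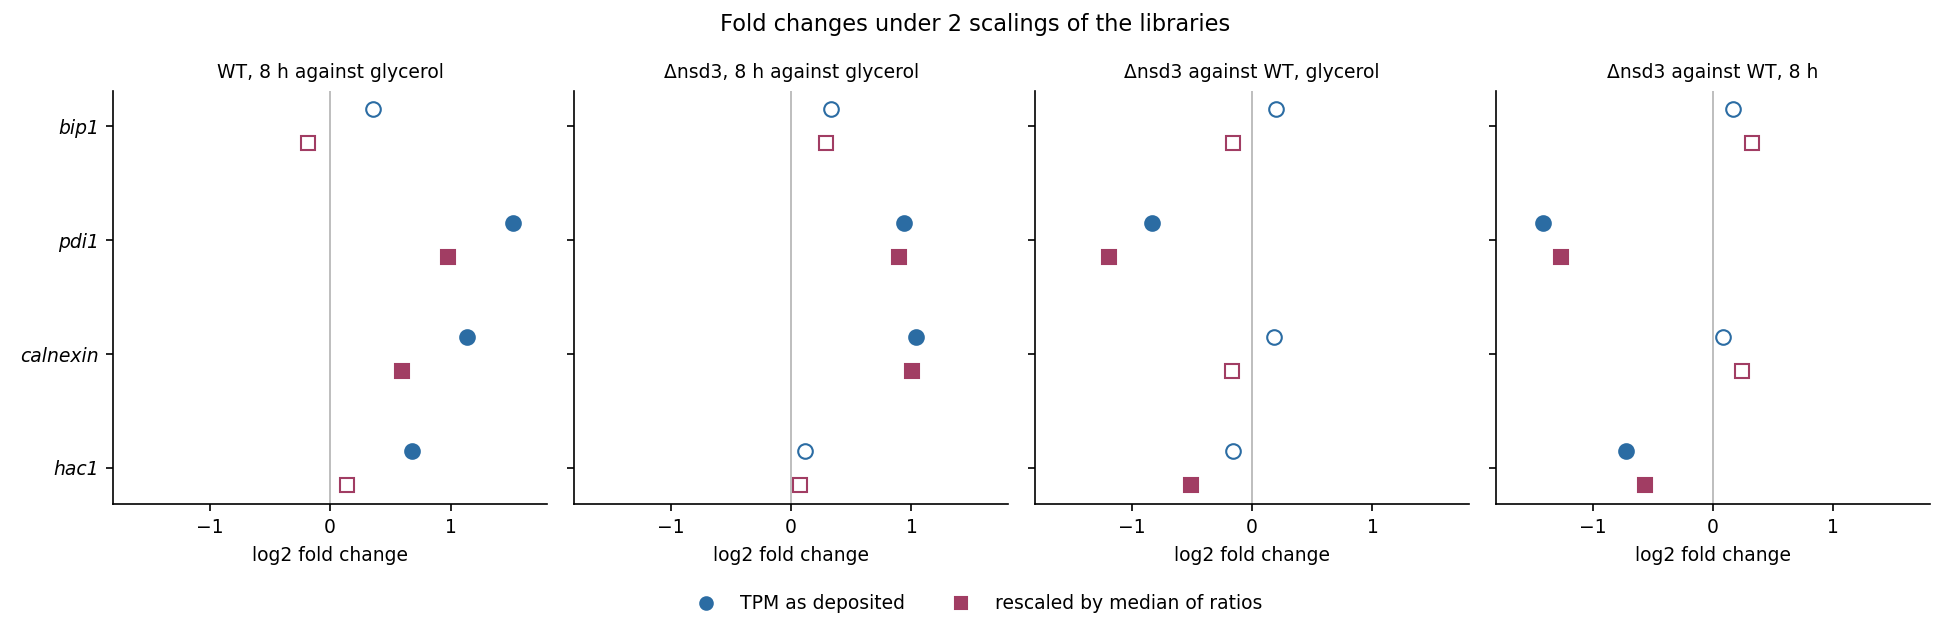
Log2 fold change (x axes) of the 4 genes in 4 comparisons with TPM as deposited (circles) and after rescaling by the median of ratios (squares), filled where the adjusted p is under 0.05. The *pdi1* and calnexin rises in both strains stay filled, WT *hac1* at 8 h against glycerol moves from 0.68 to 0.14 and opens, and *hac1* on glycerol moves from -0.15 to -0.51 and fills.

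Ratios of TPM between folding genes within a library do not change when a library is scaled by a single factor. Quantile normalization is not such a scaling and can change them. The *pdi1* to *bip1* ratio in WT was 0.53 to 0.61 on glucose, 0.80 to 1.04 on glycerol, 2.02 to 2.19 at 8 h, and 1.40 to 1.59 at 48 h. Mutant libraries had 0.51 to 0.60 on glucose, 0.37 to 0.52 on glycerol, 0.65 to 0.74 at 8 h, and 0.99 to 1.28 at 48 h. Between the geometric means of the strains, the ratio was 2.04-fold higher in WT on glycerol and 1.27-fold higher at 48 h. The strains did not overlap on glycerol or at either time on cellulose, with arithmetic means of 2.11 and 0.70 at 8 h, and they overlapped on glucose. The mutant 8 h libraries ranged from 410 to 906 TPM in *bip1*, and their *pdi1* to *bip1* ratios lay close together.

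The *pdi1* to calnexin ratio followed the same order between strains, at 3.20 to 4.08 in WT against 1.13 to 1.41 in Δ*nsd3* at 8 h. The calnexin to *bip1* ratio at 8 h was 0.54 to 0.63 in WT and 0.52 to 0.57 in Δ*nsd3*, which overlapped, and it was lowest on glycerol in both strains (0.32 to 0.36 and 0.31 to 0.36). The *hac1* to *bip1* ratio at 8 h was 0.54 to 0.56 in WT and 0.21 to 0.40 in Δ*nsd3*. Of the 16 strain comparisons of ratios, 10 gave the smallest p that an exact two-sided permutation test of 3 against 3 libraries allows (0.1, adjusted 0.16), so none can pass 0.05. They were those of *pdi1* to *bip1* and of *pdi1* to calnexin in every condition but glucose, and of *hac1* to *bip1* in all 4.

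**Figure D5:**
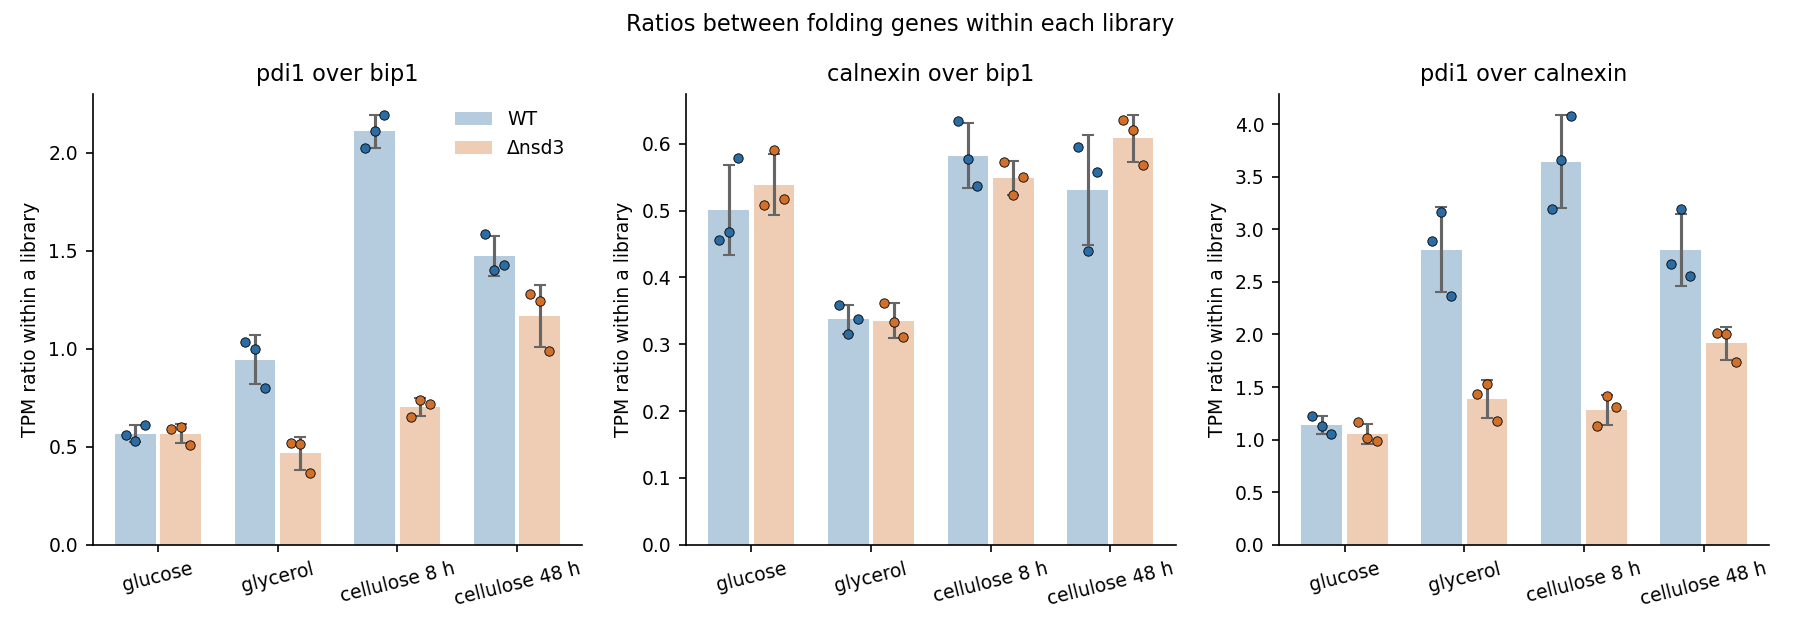
TPM ratios within a library (y axes, starting at 0) of *pdi1* to *bip1*, calnexin to *bip1*, and *pdi1* to calnexin in WT and Δ*nsd3* by condition. Points are libraries, bars are means, and error bars are SD over 3 libraries. At 8 h the *pdi1* to *bip1* points are at 2.02 to 2.19 in WT and 0.65 to 0.74 in Δ*nsd3*, while the calnexin to *bip1* points of the strains overlap.

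The 3 mutant libraries at 8 h stood apart from each other in the folding genes, with the first library highest and the third lowest in *bip1* (906 and 410 TPM), calnexin (519 and 226 TPM), and *pdi1* (588 and 295 TPM). By TPM as deposited, *hac1* followed the same order over a narrower range (195 to 163 TPM). The median-of-ratios factors of these libraries also fell from the first to the third, at 1.18, 1.08, and 0.996. The order of *hac1* is thus given only for TPM as deposited. The secreted enzyme gene *cel7a* did not follow the order of the folding genes, at 8993, 10215, and 9354 TPM in the same libraries. The part of this spread in the results was not tested beyond leaving out each library. Within WT at 48 h the second library had the lowest *hac1* and calnexin of the 3 by TPM as deposited, but not the lowest *bip1*. Its *cel7a* was 1816 TPM against 3146 and 3242 TPM. Its median-of-ratios factor was also the lowest of the 3, at 0.90 against 1.20 and 1.09. The order of calnexin is thus given only for TPM as deposited.

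Across all 24 libraries, log2(TPM + 1) of *pdi1* correlated with calnexin at r = 0.83, with *bip1* at r = 0.77, and with *hac1* at r = 0.53. *bip1* correlated with calnexin at r = 0.85 and with *hac1* at r = 0.22, and calnexin with *hac1* at r = 0.46. Many other genes were more alike to each member. By r with *pdi1*, calnexin was 523rd, *bip1* 951st, and *hac1* 2726th among the other genes tested. By r with *bip1*, calnexin was 132nd and *hac1* 4185th, and by r with calnexin, *hac1* was 3350th. These correlations are descriptions over libraries that share groups of 3, so they hold no p-value. The genes whose pattern was most like *pdi1* were TRIREDRAFT_122582 (r = 0.98), TRIREDRAFT_59482 (r = 0.97), and TRIREDRAFT_59368 (r = 0.97), none with a symbol. TRIREDRAFT_59368 averaged 211 TPM in WT and 32.5 TPM in Δ*nsd3* at 8 h. Most like *bip1* were *acu3* (r = 0.94), TRIREDRAFT_123865 (r = 0.93), and TRIREDRAFT_78797 (r = 0.93). Most like calnexin were TRIREDRAFT_81720 (r = 0.95), TRIREDRAFT_72632 (r = 0.94), and TRIREDRAFT_80091 (r = 0.94). Of these, TRIREDRAFT_80091 was near 0, with group means of 0.015 to 0.44 TPM on glycerol and glucose and at most 3.81 TPM on cellulose. TRIREDRAFT_72632 had group means of 0.84 to 1.86 TPM on glycerol and glucose. Most like *hac1* were TRIREDRAFT_107005 (r = 0.89), TRIREDRAFT_27719 (r = 0.89), and *nsf1* (r = 0.87), which encodes the ATPase that recycles the membrane fusion machinery.

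Of the genes around this pathway, 11 could be taken by a RefSeq symbol. They were the UPR sensor gene *ire1* and *ptc2*, whose yeast counterpart is a phosphatase that acts on Ire1, the glycosylation genes *dpm1*, *pmt1*, and *mpg1*, and the vesicle traffic genes *sar1*, *ypt1*, *nsf1*, *sso1*, *snc1*, and *sec1*. From glycerol to 8 h in WT 5 of the 11 were higher and 1 lower (52.1% and 10.9% of all genes), with a median change of 0.07 against 0.49 for the median gene. After rescaling 1 was higher and 6 lower, with a median of -0.46 against 0.02 for the median gene. The direction of these counts thus depended on the scaling. The share of all genes called after rescaling is not given here, so the rescaled counts have no background beside them. The largest rises were those of *sec1* (0.97), *sso1* (0.84), and *nsf1* (0.54), genes of membrane fusion at the cell surface and along the pathway, whose rescaled changes were 0.47 (adjusted p = 0.00186), 0.31 (adjusted p = 0.225), and -0.0020 (adjusted p = 0.992). The *nsf1* call was also lost without the third glycerol or the second 8 h library (adjusted p up to 0.0998). *snc1*, a vesicle SNARE gene, fell by 0.45, or by 0.30 without the first 8 h library (adjusted p = 0.0964). In the mutant limma called 0 of the 11 in this comparison (19.0% of genes higher and 11.8% lower). At an unadjusted p under 0.05 there were 4 of the 11, beside 3174 of the 7933 genes tested. Rescaling called 1 higher and 3 lower, again without the share of all genes. Between 8 h and 48 h in WT 2 were higher and 4 lower (15.0% and 28.2% of genes). The lower genes were *ire1*, *pmt1*, *mpg1*, and *nsf1*, and the second 48 h library was the lowest of its group in each, at 26.1 TPM against 49.1 and 49.5 TPM in *pmt1*, 19.5 against 69.3 and 71.4 TPM in *mpg1*, and 44.3 against 88.2 and 81.9 TPM in *nsf1*. Without that library 3 were higher and 2 lower, with *pmt1* at -0.31 (adjusted p = 0.110) and *nsf1* at -0.37 (adjusted p = 0.0707) no longer called and *mpg1* at -0.51. The higher genes, *sar1* and *snc1*, were not called without the first or the second 8 h library or the third 48 h library (adjusted p up to 0.0712 and 0.198).

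*ire1* was measured at 160, 165, and 153 TPM on glycerol, 152, 177, and 172 TPM at 8 h, and 97.7, 65.8, and 119 TPM at 48 h in WT. It fell by 0.86 between 8 h and 48 h there (adjusted p = 2.50e-04), against -0.15 in Δ*nsd3* (adjusted p = 0.581), and the difference between the strains was 0.70 (adjusted p = 0.0364). That difference was 0.51 after rescaling (adjusted p = 0.0700), and it was not called in 5 of the 12 fits with a library left out, namely without the second or the third WT 8 h, the third mutant 8 h, the second WT 48 h, or the first mutant 48 h library (0.47 at the lowest, adjusted p up to 0.103). The fall in WT held in each such fit, at -0.62 without the second 48 h library. At 8 h on cellulose *ire1* was 0.54 lower in Δ*nsd3* than in WT (119, 130, and 96.6 TPM, adjusted p = 0.0105), and at -0.42 without the third mutant library (adjusted p = 0.0717). In that comparison 3 of the 11 genes were higher and 3 lower (19.1% and 26.4% of genes), with 1 to 3 higher and 1 to 3 lower when a library was left out. The count of higher genes was 1 without the first or the second WT library or the second mutant library, and the count of lower genes was 1 without the third mutant library. The largest differences were those of *dpm1*, for the dolichol phosphate mannose synthase that supplies mannose for glycosylation (0.83, adjusted p = 2.66e-05), and *snc1* (0.38, adjusted p = 0.0396) upward, and of *ptc2* (-0.77, adjusted p = 2.62e-04) and *nsf1* (-0.66, adjusted p = 0.00921) downward. The *snc1* call was lost without any 1 of the 6 libraries but the third of WT (0.23 at the lowest, adjusted p up to 0.243), and the *nsf1* call without the third mutant library (-0.52, adjusted p = 0.0630). *dpm1* was higher in Δ*nsd3* in all 4 conditions, at 241 to 359 TPM in its 12 libraries against 112 to 166 TPM in WT, and it kept its call in all 4 after rescaling, after quantile normalization, and with each library left out.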

How the data were processed

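RNA of mycelia from 24 cultures or samples (8 groups of 3) was sequenced with a stranded mRNA kit. The authors trimmed reads with Trim Galore 0.6.7, mapped them with HISAT2 2.2.1 to the JGI reference genome, counted them with featureCounts, and compared groups with DESeq2. The table used here holds TPM that the authors deposited for 8755 genes, of which 35 were at 0 in every library. TPM summed to 838257 to 886039 per library over these genes. How TPM was computed is not given in the sources used here, and read counts were not used.

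log2(TPM + 1) of 7933 genes that reached 1 TPM in 3 or more libraries was fitted with limma 3.58.1 (R 4.3.3), with a mean per group over all 24 libraries and eBayes with a trend. Tests were two-sided, with Benjamini-Hochberg adjustment across the 7933 genes in each comparison. The pseudocount shrinks the fold change of low genes. The model and the depth estimate were run on simulated data. For the model these had independent normal noise, with the same SD in every group and no shift of whole libraries. The depth simulation used the same gene lengths as the estimate. Neither simulation covers departures from these settings. Depth counts only reads of genes matched to RefSeq (8750 identifiers matched, 225 with a symbol). It came from the step between low TPM values times RefSeq gene lengths. Of those values, 76.2% to 84.1% came within 0.1 of a whole read in 23 libraries and 59.3% in the third Δ*nsd3* glycerol library, against 20% by chance. Python 3.11.15, numpy 2.4.6, pandas 2.3.3, scipy 1.17.1, and matplotlib 3.10.9 were used.

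The genes and lists were chosen with earlier results of these data known. The genes named were the 4 folding genes in every comparison, *nsd3*, cellulase genes with a symbol, the 3 genes most alike to each folding gene, and, of a list, the 3 largest called changes in each direction at 8 h against glycerol in WT and the 2 largest called strain differences in each direction at 8 h. *ire1* was named besides. Lists by protein name, by ER retention signal, and by promoter motif were planned but not run, since no table used here gives them, and the 11 genes with a RefSeq symbol were taken in their place after the symbols were seen. Sequences are not shown.

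No pairing entered the main fit. Same-numbered libraries were marked as possibly paired where their deviations from the group means correlated over 0.1 in all 3 pairs, a hint from the data and not from the labels. This held for WT at 48 h against glycerol (0.21, 0.17, and 0.11), and for Δ*nsd3* against WT on glycerol (0.11, 0.20, and 0.20) and at 48 h (0.21, 0.17, and 0.29), where the replicate block changed no call. Alternatives were a pseudocount of 0.1 or 5, no filter, a filter at 5 TPM, quantile normalization, scaling by the median of ratios, fitting the compared groups alone, the replicate block, eBayes without trend, array weights, whose iteration stopped before convergence, and each library left out in turn. For the 11 symbol genes and the cellulase genes, rescaling, quantile normalization, and left-out libraries were added after seeing the data.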

Additional observations from a re-analysis of the deposited data

Results flagged for a closer look

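In 4 cases the response differed between the strains by a test of the difference itself. The change of *hac1* from glycerol to 8 h on cellulose was -0.56 (log2, Δ*nsd3* minus WT), with 0.12 in the Δ*nsd3* strain and 0.68 in WT. The change of *pdi1* from glucose to 8 h was -1.20, with 1.94 and 3.14. The changes from 8 h to 48 h differed by 1.08 for *pdi1* (0.05 and -1.03) and by 1.14 for *hac1* (0.40 and -0.74). The first of these was lost after rescaling (-0.06), and the other 3 kept their direction and call after it.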

How the results depend on the processing

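Over the 76 gene and comparison results, 1198 of 1288 values under the alternatives kept their side of the threshold, 63 lost a call, 27 gained one, and no called change turned its sign. This pooled count is lifted by settings that change little for genes at such levels. Both pseudocounts and the filter at 5 TPM kept all 76, and no filter kept 75. Fits with a library left out, which share most of their libraries, made up 528 of the values, of which 485 kept their side. The median of ratios kept 63, lost 8 calls, and gained 5. The number of the 4 genes called changed as follows, first where it moved by more than 1.5 times. The share of all genes called under each setting is not given beside these counts. They therefore do not tell whether a move was particular to the 4 genes. At 48 h against glycerol in WT it was 2, and 1 without a filter, 1 without the trend, 1 with array weights, 0 in the fit of only the groups compared, and 0 to 2 with a library left out. For glycerol against glucose in WT it was 2, 3 after the median of ratios and after quantile normalization, 4 with array weights, and 4 in the fit of only the groups compared. For 48 h against 8 h in the Δ*nsd3* strain it was 2, with 3 after the median of ratios, quantile normalization, or array weights, 1 without the trend, 1 in the fit of only the groups compared, and 0 to 2 with a library left out. The strain effect was 1 on glycerol (2 after the median of ratios), 1 on glucose (2 with array weights), and 1 at 48 h (0 with array weights, 0 in the fit of only the groups compared, 0 to 1 with a library left out). The strain difference of the change from glycerol to 8 h was 1, with 0 after the median of ratios, 2 after quantile normalization, 2 with array weights, and 0 to 2 with a library left out. That from 8 h to 48 h was 2, with 1 in the fit of only the groups compared, and that against glucose was 1, with 1 to 2 with a library left out. Smaller moves were those at 8 h against glycerol in WT (3, with 2 after the median of ratios and 4 with array weights or only the groups compared), at 48 h against 8 h in WT (4, with 3 after either rescaling), at 8 h against glucose in WT (4, with 3 after the median of ratios), and at 48 h against glucose in WT (4, with 3 after quantile normalization, without the trend, with array weights, or with only the groups compared). In the mutant they were 48 h against glucose (4, with 3 after the median of ratios), glycerol against glucose (3, with 2 after the median of ratios), and 48 h against glycerol (3, with 4 with array weights or only the groups compared). With a library left out the count otherwise moved by at most 1. A fit of only the groups compared has fewer libraries, and the other causes were not tested. At 48 h against glycerol in WT the 2 genes called after the median of ratios were *bip1* and *hac1*, both lower, in place of *pdi1* and calnexin.

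With the replicate block, calnexin at 48 h against glycerol in the Δ*nsd3* strain lost its call (0.51, adjusted p = 0.0511), and at 48 h against 8 h there *hac1* lost its own (0.40, adjusted p = 0.0509) while calnexin gained one (-0.53, adjusted p = 0.00972). The replicate block changed no other call. TPM carries no absolute amount of RNA, so the choice of scaling cannot be settled from the table.

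The alternatives for the 11 genes around the pathway and for the cellulase genes were chosen after seeing the data. Among the changes of these genes given above, they turned the sign of 1 called change, that of *nsf1* from glycerol to 8 h in WT, which was -0.0020 after the median of ratios.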
